A study of Mus musculus with 10 samples.

Results

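The comparison described here sets mouse embryonic stem cells that lack Dnmt1 against wild-type J1 embryonic stem cells, on 3 of the 10 one-colour arrays of the series. All genes were compared, and 23807 could be tested. The knockout group, Dnmt1_KO, is line 36 with the genotype Dnmt1-/- and gave 1 array. J1 is the wild-type line and gave 2 arrays. The spread between arrays came from the replicated groups of the series, so the single knockout array was taken to vary as those do. Of the other lines, Dnmt3b_KO (line 8bb, Dnmt3b-/-, 2 arrays) and TKO (line 19-1, Dnmt1-/-Dnmt3a-/-Dnmt3b-/-, 1 array) are used below to show where the Dnmt1 knockout differs from them. The PRDM14 (line JP-23) and PRDM14_DNMT3B (line JP-23+3b-3) groups are wild-type cells with stable Prdm14 expression and, in the second, Dnmt3b1 as well. Their titles name J1. They gave 2 arrays each and enter the estimate of the spread, and their levels are given for genes that set J1 apart. The cells of every group grew without feeder cells, in serum-containing medium with leukaemia inhibitory factor. Each genotype is 1 line, and the labels do not say whether a line is 1 clone or whether the knockout lines came from J1. Nothing states that replicate arrays came from separate cultures, so the p-values below describe array-to-array spread only, part or all of which can be technical.

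Dnmt1 is the maintenance DNA methyltransferase: after replication it copies CpG methylation onto the new strand, guided by Uhrf1, which binds half-methylated sites. Dnmt3a and Dnmt3b set methylation at new sites, with Dnmt3l as their cofactor. In embryonic stem cells, loss of Dnmt1 is known to lower genomic methylation widely, and germline genes, imprinted genes and some retroelements are among the sequences that methylation is known to keep silent.

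Levels below are log2 intensities relative to the 75th percentile of the same array, differences are the knockout minus J1 on that scale, and errors of differences are standard errors from the fit. Genes counted as changed passed a limma test with a Benjamini-Hochberg adjusted p under 0.05. For a gene whose signal stayed within background throughout 1 of the groups compared, only a minimum fold can be given. It is written as at least, was computed against the detection limit of the dim arrays, and stands beside the adjusted p of the fit.

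The probe that checks the knockout is shown because the targeted gene rests on it alone. It is the single Dnmt1 probe kept, with 60 bases whose coordinates in the files span 369 bases (mm9 chr9:20711973-20712341, minus strand).
Dnmt1 probe: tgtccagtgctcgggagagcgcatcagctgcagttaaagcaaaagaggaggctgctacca

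Dnmt1 had a level of -2.68 on the Dnmt1 knockout array, against 1.62 and 1.30 on the J1 arrays. The knockout lay far below both J1 arrays, a fall by 4.14 log2 units or 17.6-fold (SE 0.19, limma adjusted p = 0.000246). The probe was still well above background in the knockout. The labels do not say where it lies relative to the deleted part of the gene. The level in Dnmt3b_KO was 1.66 and 1.43, and that in TKO was -3.15. The Dnmt1 knockout did not differ from TKO past the threshold (0.48 log2 units, SE 0.22, limma adjusted p = 0.273).

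As a check of the cell type, all 26 genes of the core and naive pluripotency list were well above background on the knockout array and on both J1 arrays. Pou5f1 and Nanog, 2 factors of the pluripotency core chosen after their values were seen, stood at 5.21 and 5.99 in the knockout. In J1 replicates 1 and 2 Pou5f1 stood at 5.98 and 5.99, and Nanog at 5.91 and 5.95. Pou5f1 thus fell by 0.78, past the threshold used below (limma), and Nanog did not pass it. Of the 26 genes of the list 15 fell and 1 rose, so this pair does not stand for the list.

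Of the 23807 genes tested, 6707 changed in the Dnmt1 knockout against J1 (28.2%), 3128 higher (13.1%) and 3579 lower (15%). These shares of 13.1% and 15% are the background for every list count against J1 below. Large changes ran mostly upward. Over 2-fold, 1932 genes rose (8.12%) and 757 fell (3.18%). Over 8-fold, 445 rose and 20 fell, and over 16-fold 187 rose and 9 fell. These counts by fold use the fitted difference, also for genes with only a minimum fold. For 752 of the rises both J1 arrays were not well above background while the knockout was, and for 191 of the falls the knockout array was not while J1 was. Another 114 called genes, counted in neither number, were above background in neither group. Detection on the single knockout array alone kept a probe, while J1 had to detect it on both arrays. The filter thus admitted rises from background more readily than falls into it. With probes above background on all 10 arrays, 847 genes rose and 552 fell over 2-fold. That stricter filter also drops every gene not above background in J1 that the knockout expressed. The part of the filter in the upward excess was therefore not tested. The median difference over all genes was -0.14, and it was -0.06 after quantile normalization, so the sign of a difference smaller than this shift depends on the scaling. With that normalization 55.8% of called genes were higher, against 46.6% here. The count of falls also rests on the J1 arrays, as it was 2044 without J1 replicate 2.

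Slide and scan pass move with the comparison. The knockout array shared a slide with J1 replicate 1 but was scanned in another pass, and J1 replicate 2 lay on a second slide. With slide as a block 8306 genes changed. Within the shared slide, without a test, 2454 genes lay over 2-fold higher and 1091 over 2-fold lower in the knockout than in J1 replicate 1, beside 2520 and 1066 against both J1 arrays. The part of the scan pass was not tested.

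The largest fitted rise among named genes was that of H19, an imprinted noncoding RNA made from the maternal allele, next to Igf2. H19 stood at 6.86 in the knockout, against -2.58 and -2.14 in J1. That is 9.23 log2 units or 599-fold (SE 0.20, limma adjusted p = 0.000124). All 6 H19 probes were higher in the knockout than on both J1 arrays. The probe used for it is shown because this difference was the largest of the named ones (mm9 chr7:149761492-149761551, minus strand).
H19 probe: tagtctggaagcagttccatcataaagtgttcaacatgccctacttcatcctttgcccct

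Of the other 9 largest fitted rises, 6 started from levels not above background on both J1 arrays. Nefm, the medium neurofilament protein of neurons, stood at 2.50 in the knockout and at -5.81 and -5.46 in J1, where it was not above background, a difference of at least 99.9-fold (limma adjusted p = 0.000124). Members of the Xlr family, X-linked genes related to the meiotic protein Sycp3, made up 4 of the 10 largest fitted rises. Xlr3b stood at 3.60 in the knockout, against -3.84 and -4.01 in J1, a rise of 7.53 log2 units (SE 0.29, limma adjusted p = 0.000183). Xlr4b, Xlr4a and Xlr5b rose at least 65.9-fold, 56.8-fold and 32.6-fold. Xlr genes are close copies, so a probe may detect several of them. Cpne4, a calcium-dependent membrane-binding protein, stood at 1.00 in the knockout, against -6.37 and -6.00 in J1, at least 35.4-fold higher (limma adjusted p = 0.0138). Cpne4 did not pass with slide as a block (limma adjusted p = 0.0538).

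**Figure D1:**
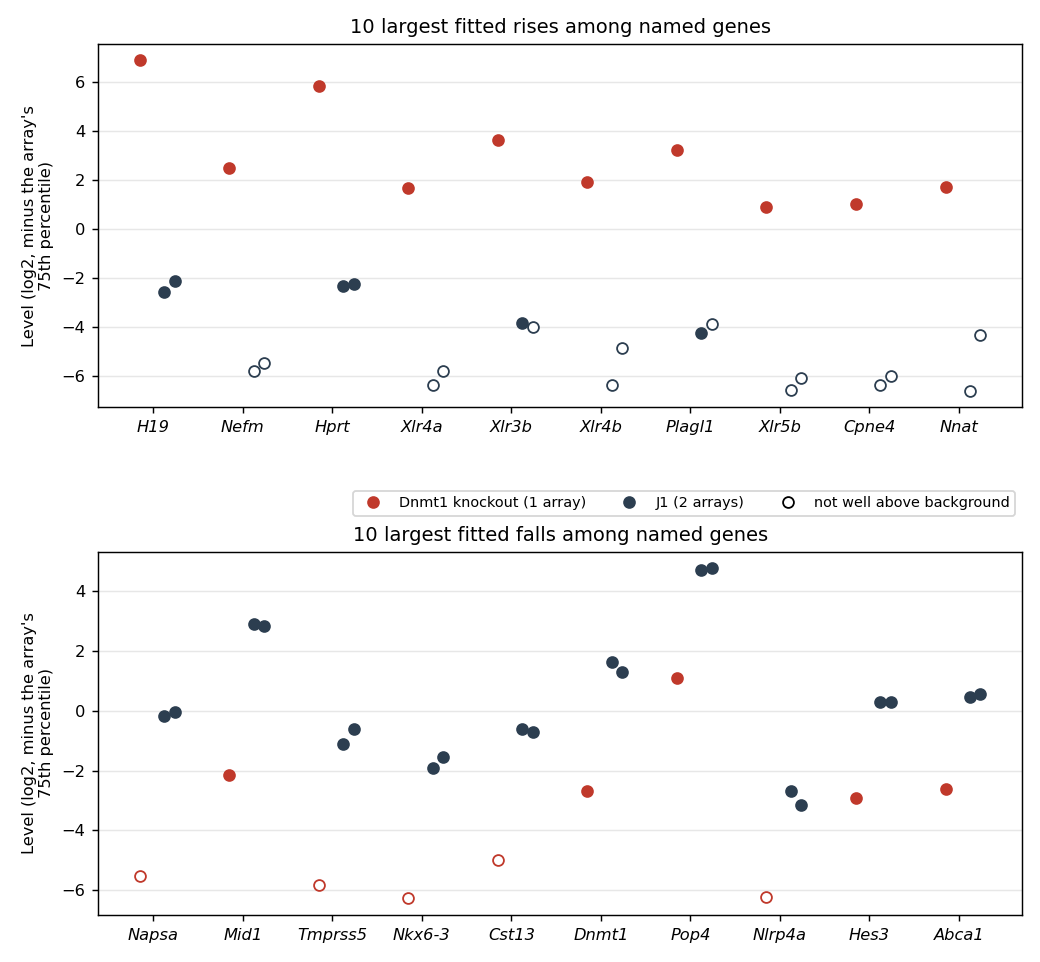
Levels (log2, relative to the 75th percentile of each array) of the 10 named genes with the largest fitted rise and the 10 with the largest fitted fall, as 1 point per array, the Dnmt1 knockout left of J1. Open circles mark arrays on which the probe was not well above background. H19 stands at 6.86 in the knockout and near -2 in J1. The genes were chosen by their difference from J1, so the gap between the knockout and both J1 arrays follows from the choice.

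For some genes the difference set J1 apart from the other lines as well. Hprt, the purine salvage enzyme often used as a reference gene, stood at 5.81 in the knockout, against -2.35 and -2.26 in J1, a difference of 8.11 log2 units (SE 0.18, limma adjusted p = 0.000124). In Dnmt3b_KO it stood at 6.27 and 6.49 and in TKO at 5.95. Hprt stood at 6.06 and 6.35 in PRDM14 and at 6.33 and 6.56 in PRDM14_DNMT3B, although the titles of these groups name J1. The J1 arrays thus stood apart from all other arrays. Mid1, an X-linked ubiquitin ligase, stood at -2.13 in the knockout, against 2.89 and 2.84 in J1, and at -2.51 and -2.60 in Dnmt3b_KO. Pop4, a subunit of RNase P, stood at 1.09 in the knockout, against 4.71 and 4.77 in J1, and at 1.12 and 1.34 in Dnmt3b_KO. These 3 genes separate J1 from the other lines and did not differ between the Dnmt1 knockout and Dnmt3b_KO past the threshold (limma).

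Several genes that J1 expressed were not above background in the knockout, so only a minimum can be given for their fall. Napsa, an aspartic protease, stood at -5.51 in the knockout, against -0.17 and -0.05 in J1, at least 17.8-fold lower (limma adjusted p = 0.00016). Cst13, a cystatin, was at least 12.2-fold lower and Tmprss5, a transmembrane serine protease, at least 10.6-fold lower. Nkx6-3, a homeobox factor of the stomach, was at least 5.74-fold lower and Nlrp4a, of a family expressed in oocytes, at least 2.52-fold lower. The fall of Nkx6-3 rests on 1 of its 2 probes, since the other was lower by only 0.15. Nlrp4a did not pass without J1 replicate 1 (limma adjusted p = 0.0514). Hes3, a basic helix-loop-helix repressor, stood at -2.92 in the knockout, against 0.29 and 0.30 in J1, a fall by 3.22 log2 units (SE 0.19, limma adjusted p = 0.000474). Hes3 stood as low in Dnmt3b_KO, at -2.93 and -2.51. Abca1, the cholesterol exporter, fell by 3.11 log2 units.

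The rest of the methylation machinery differed by at most 1.01 log2 units. Of its 12 listed genes, all tested, 3 rose and 3 fell (Dnmt1 included), and the list median was -0.15. Dnmt3a stood at 0.55 in the knockout, against -0.18 and -0.34 in J1, a rise of 0.81 log2 units (SE 0.12, limma adjusted p = 0.00639). Dnmt3b stood at 7.65, against 7.6 and 7.57 in J1, and Uhrf1 at 5.96, against 5.94 and 5.92. Neither passed the threshold, with differences of 0.06 (SE 0.10) and 0.02 (SE 0.10). Dppa3, a maternal factor that restrains Uhrf1, rose by 0.83, and Uhrf2, the relative of Uhrf1, by 0.76. Zfp57, a zinc finger protein that keeps methylation at imprinted regions, fell by 1.01, and Cdca7, a partner of the remodeller Hells, fell by 0.72. Dppa3 did not pass without J1 replicate 1 (limma adjusted p = 0.0588). Cdca7 did not pass without J1 replicate 2 (limma adjusted p = 0.0680) or without either PRDM14_DNMT3B replicate (limma adjusted p = 0.0514). Dnmt3l (-0.37), Hells (-0.30), Usp7 (-0.16) and the tRNA methyltransferase Trdmt1 (-0.13) did not pass.

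Among genes that remove or read methylation, some fell and some rose. The list of TET enzymes and base excision repair had 21 genes, and 2 of them rose and 5 fell, beside 13.1% and 15% of all genes, with a median of -0.32. Tet2, which oxidises methylated cytosine, stood at 0.85 in the knockout, against 2.21 and 2.52 in J1, a fall by 1.51 log2 units (SE 0.19, limma adjusted p = 0.00426). Its relative Tet1 fell by 0.69 (limma adjusted p = 0.00541). All 3 probes of each gene were lower. Gadd45a, a stress-induced gene, fell by 1.36, and Apobec1, a cytidine deaminase, rose by 1.13. Of 8 methyl-CpG binding genes 1 rose and 3 fell, among them Mbd1 (-0.70) and the glycosylase Mbd4 (-0.58). Mbd1 did not pass without J1 replicate 2 (limma adjusted p = 0.0514). Zbtb33 (-0.48) did not pass. The rise of Zbtb4 (1.38) rests on 1 of its 2 probes, since the other was lower by 2.08.

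Germline genes were covered by 3 lists, for the piRNA pathway, meiotic chromosomes and other germline functions, and most of their changed members rose. The piRNA pathway silences transposons in germ cells, and meiotic cohesins and the synaptonemal complex hold paired chromosomes together. Germline promoters are often rich in CpG and methylated in somatic cells. The promoters of Xlr4a, Fkbp6, Xlr3a and Xlr5a, the 4 risen members of these lists with the largest fitted differences, are shown, with CpG sites in capitals, as these sites are what Dnmt1 methylates. They run 5′ to 3′ from 250 bases before to 50 bases after the gene start in RefSeq (build GRCm38.p6), and for Fkbp6 the first of its listed starts was taken. The 3 Xlr genes were not above background in J1, so their place in this order is not measured, and the other Xlr genes given above are not in these lists.
Xlr4a promoter, chrX:73082458-73082757, minus strand: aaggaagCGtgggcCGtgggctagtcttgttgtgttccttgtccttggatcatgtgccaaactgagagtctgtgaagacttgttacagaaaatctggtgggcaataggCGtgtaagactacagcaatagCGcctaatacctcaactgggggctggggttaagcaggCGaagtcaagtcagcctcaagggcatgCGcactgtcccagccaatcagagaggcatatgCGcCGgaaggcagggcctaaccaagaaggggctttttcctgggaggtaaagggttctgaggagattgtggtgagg
Fkbp6 promoter, chr5:135349995-135350294, minus strand: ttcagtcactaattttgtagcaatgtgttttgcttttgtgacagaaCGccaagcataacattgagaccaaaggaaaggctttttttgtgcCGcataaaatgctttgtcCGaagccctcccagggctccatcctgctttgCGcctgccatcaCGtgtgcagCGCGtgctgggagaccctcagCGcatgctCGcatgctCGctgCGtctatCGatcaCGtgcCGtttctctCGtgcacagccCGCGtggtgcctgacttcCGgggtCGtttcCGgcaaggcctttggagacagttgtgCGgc
Xlr3a promoter, chrX:73097046-73097345, minus strand: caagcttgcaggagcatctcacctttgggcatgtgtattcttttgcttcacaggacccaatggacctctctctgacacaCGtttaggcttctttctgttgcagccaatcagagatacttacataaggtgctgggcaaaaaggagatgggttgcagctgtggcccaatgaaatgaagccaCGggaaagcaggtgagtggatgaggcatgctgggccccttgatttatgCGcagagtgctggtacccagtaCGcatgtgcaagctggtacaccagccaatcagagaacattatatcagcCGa
Xlr5a promoter, chrX:73117653-73117952, minus strand: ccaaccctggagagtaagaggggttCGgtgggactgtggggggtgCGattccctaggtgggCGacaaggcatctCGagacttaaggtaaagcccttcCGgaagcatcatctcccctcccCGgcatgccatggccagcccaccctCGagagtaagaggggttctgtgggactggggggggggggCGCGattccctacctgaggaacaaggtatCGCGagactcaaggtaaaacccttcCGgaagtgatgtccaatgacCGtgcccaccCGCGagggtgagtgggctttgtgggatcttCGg

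The Fkbp6 promoter held 21 CpG sites, and the Xlr5a, Xlr4a and Xlr3a promoters held 16, 8 and 5. The Fkbp6 window held the motif CACGTG 2 times, and the 3 Xlr windows did not hold it. Of 43 germline genes that rose, 39 had a promoter in the RefSeq table, and 9 of these held CACGTG (23.1%). Of 25 tested germline genes that did not rise, 23 had one, and 6 held the motif (26.1%). Of the tested genes with a promoter 9.81% held it, as did 7.15% of all 32851 promoters of the table. GGCGGGA, searched on both strands, was in 8 of the 39 (20.5%), in 3 of the 23 (13%), in 19.3% of tested genes with a promoter and in 11.3% of all promoters. Only 51.3% of tested genes had a promoter in the table, so neither share is a full background. The median CpG count was 16 in the risen germline genes and 17 in those that did not rise. A match of letters is a description of the window only. A comparison over all risen genes is void, because only 59.2% of the genes that rose over 2-fold had a promoter in the table.

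Of 20 piRNA genes 15 were tested, and 10 rose, 0 fell and 5 did not pass, beside 13.1% of all genes that rose. Their median difference was 1.49, or 1.21 with dim genes at their bound. Fkbp6, a chaperone partner of the pathway, stood at 1.54 in the knockout, against -3.54 and -3.83 in J1, a rise of 5.22 log2 units or 37.4-fold (SE 0.20, limma adjusted p = 0.000183). Gpat2, an acyltransferase relative needed for piRNAs in mouse testis, stood at 3.81, against -0.32 and -0.38 in J1, and rose 17.8-fold. Gtsf1, a zinc finger partner of Piwi proteins, stood at 3.07, against -0.22 and -0.40 in J1, and rose 10.4-fold. Asz1, a protein of germ granules, was not above background in J1 and was at least 3.47-fold higher in the knockout. The 5 untested genes, Piwil1, Piwil4, Tdrd1, Tdrd6 and Tdrd9, were not well above background on every array of any group.

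Among meiotic chromosome genes 21 of 25 were tested, and 11 rose and 1 fell, with a median of 0.86. Smc1b, a meiotic cohesin subunit, stood at 0.99 in the knockout, against -3.30 and -3.10 in J1, and rose 18.3-fold (SE 0.13 log2 units, limma adjusted p = 0.000169). Tex11, an X-linked crossover factor, stood at -0.74, against -3.40 and -2.99 in J1, and rose 5.48-fold. Tex12, of the central element of the synaptonemal complex, was at least 4.5-fold higher, and Hormad2, of the chromosome axis, at least 4.64-fold. Both were not above background in J1. The fall was that of Sycp3, a lateral element protein, named because it was the only one. Sycp3 stood at -0.70 in the knockout, against 1.08 and 1.04 in J1, a fall by 1.76 log2 units (SE 0.13, limma adjusted p = 0.000887).

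In the list of other germline genes 32 of 40 were tested, and 22 rose and 2 fell, with a median of 1.73 or 1.55 with dim genes at their bound. Of the 22 rises, 10 started from levels not above background on both J1 arrays. These 10 passed the filter on dim probes only through arrays other than J1, so their count is no support of its own. The same holds for 3 of the piRNA rises and 2 of the meiotic rises. Of the lists below, it also holds for 2 paternally and 1 maternally expressed rises and for 2 interferon rises. The Rhox, trophoblast, mesoderm and p53 lists have 1 such rise each. Xlr4a, already given, was at least 56.8-fold higher. Xlr3a was at least 7.41-fold higher and Xlr5a at least 6.01-fold higher. Fmr1nb, an X-linked gene active in testis, stood at 3.30 in the knockout, against -0.74 and -0.52 in J1, a rise of 3.93 log2 units (SE 0.15, limma adjusted p = 0.000183). The falls, named because they were the only ones, were those of Dppa4 (-0.76) and Dppa2 (-0.49), a pair of chromatin proteins also present in stem cells. Dppa2 did not pass without J1 replicate 1 or replicate 2 (limma adjusted p = 0.0589 and 0.0505). After normexp background correction the medians of the piRNA, meiotic and other germline lists were 0.65, 0.59 and 0.68.

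Genes of the 2-cell embryo, which small numbers of cells in stem cell cultures are known to switch on, formed a further list. Of 25 listed, 17 were tested, and 13 rose and 2 fell. Of the 13 rises, 8 started from levels not above background on both J1 arrays and passed the filter only through other arrays, so their count is no support of its own. The median was 3.72, but 9 of the 17 were not above background in J1 and the median was 1.78 with dim genes at their bound. It was 0.62 after normexp background correction. Zscan4f, a telomere-associated zinc finger protein, stood at 2.74 in the knockout, against -2.29 and -2.13 in J1, a rise of 4.94 log2 units (SE 0.30, limma adjusted p = 0.000484). Zscan4e, its close copy, rose by 4.92. Tmem92, a membrane protein, was at least 9.76-fold higher. Usp17la, a deubiquitinase, was at least 10.3-fold higher by 1 probe, while its other probe was lower by 0.33. Zfp352 (-1.50) and Eif1a (-0.54), were the only falls, and Eif1a did not pass without J1 replicate 1 (limma adjusted p = 0.0514). In RNA from whole cultures, more cells with a gene on and more RNA per cell cannot be told apart.

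**Figure D2:**
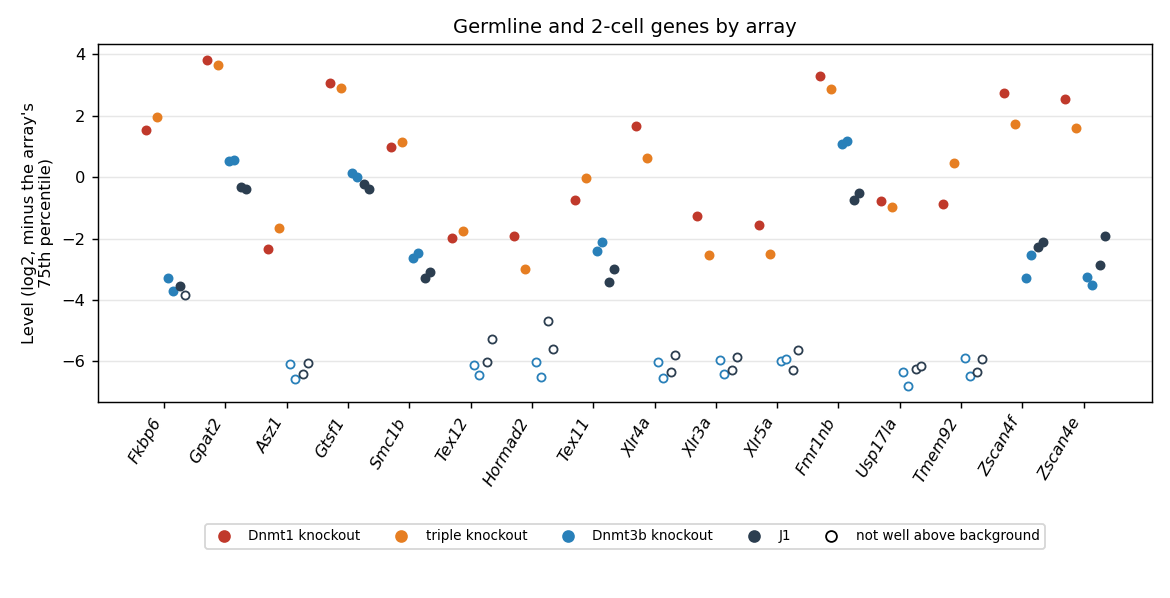
Levels (log2, relative to the 75th percentile of each array) of the named piRNA, meiotic, other germline and 2-cell genes on the Dnmt1 knockout, TKO, Dnmt3b_KO and J1 arrays, as 1 point per array. Open circles mark probes not well above background. Fkbp6 stands at 1.54 in the Dnmt1 knockout and at 1.95 in TKO, and below -3 in Dnmt3b_KO and J1.

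Imprinted genes, of which cells normally use the copy from 1 parent, were counted by parental class. Of 28 tested genes expressed from the paternal copy 14 rose and 2 fell, with a median of 0.59. Nnat, neuronatin, stood at 1.70 in the knockout, against -6.60 and -4.34 in J1, where it was not above background, at least 57.5-fold higher (limma adjusted p = 0.00349). Plagl1, a zinc finger factor, stood at 3.22, against -4.25 and -3.88 in J1, a rise of 7.28 log2 units (SE 0.24, limma adjusted p = 0.000174). All 4 Plagl1 probes were higher, but 2 of them by only 0.29 and 0.77. Plagl1 also stood at 2.22 and 2.57 in Dnmt3b_KO and at 2.75 in TKO. In PRDM14 it stood at 0.99 and 1.10 and in PRDM14_DNMT3B at 2.91 and 3.25, so J1 stood apart for this gene too. Peg13, a noncoding RNA, stood at -0.23, against -4.20 and -6.16 in J1, and rose 30.9-fold (limma adjusted p = 0.00669). Zfp264 was at least 1.21-fold higher. The falls, named as the only ones, were those of Igf2, the growth factor beside H19, and Slc38a4, an amino acid transporter. Igf2 stood at -4.15 in the knockout, not above background, against -2.48 and -2.75 in J1, at least 2.90-fold lower (limma adjusted p = 0.0211), and did not pass without J1 replicate 1 (limma adjusted p = 0.0667). Slc38a4 fell by 0.83.

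Of 26 tested genes expressed from the maternal copy 6 rose and 7 fell, with a median of -0.09 that was 0.09 after quantile normalization. H19 was the largest rise. Grb10, an adaptor that limits growth, stood at -1.36 in the knockout, against 1.53 and 1.62 in J1, a fall by 2.94 log2 units or 7.67-fold (SE 0.13, limma adjusted p = 0.000224). Phlda2, which limits placental growth, stood at 0.79, against 2.61 and 3.12 in J1, and fell by 2.08. Asb4 was not above background in J1 and was at least 5.52-fold higher in the knockout (limma adjusted p = 0.0245). Asb4 did not pass without J1 replicate 1 or replicate 2 (limma adjusted p = 0.0675 and 0.0736), nor with slide as a block (limma adjusted p = 0.0641).

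In the Rhox cluster, X-linked homeobox genes of reproductive tissues, 10 of 16 genes were tested, and 5 rose and 1 fell. Rhox4a stood at 1.24 in the knockout, against -3.29 and -3.79 in J1, a rise of 4.78 log2 units (SE 0.26, limma adjusted p = 0.000362). Rhox4e was at least 19.7-fold higher. Rhox10 rose by 2.50 and Rhox13 by 1.53. Rhox5, named as the only fall, stood at 6.69, against 7.62 and 7.41 in J1.

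Genes of antigen presentation and of the interferon response, which signal and display viral or other foreign material, rose with 0 falls. Of 17 tested MHC class I genes 13 rose, by 1.01 to 3.12 log2 units, with a median of 1.69. Psmb8, an immunoproteasome subunit, stood at 3.00 in the knockout, against -0.07 and -0.17 in J1, a rise of 3.12 log2 units (SE 0.62, limma adjusted p = 0.0176). Psmb8 did not pass without J1 replicate 1 or replicate 2 (limma adjusted p = 0.0509 and 0.0592). Tap2, a peptide transporter, stood at 2.78, against 0.22 and -0.07 in J1, and rose 6.52-fold (limma adjusted p = 0.000622). H2-Q7, a class I molecule, rose by 1.96 and Psmb9, another immunoproteasome subunit, by 1.95. MHC genes are close copies, so their probes may share signal.

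Of 33 interferon and RNA sensing genes 26 were tested, and 13 rose and 0 fell, with a median of 0.89 that was 0.33 after normexp background correction. Ifi27, an interferon-induced gene, stood at 1.63 in the knockout, against -5.12 and -4.86 in J1, at least 55.0-fold higher (limma adjusted p = 0.000643). Gbp3, a guanylate-binding GTPase, stood at 3.14, against -1.33 and -1.18 in J1, and rose 21.0-fold. Zbp1, a sensor of Z-form nucleic acids, stood at 1.13, against -2.65 and -2.89 in J1, and rose 15-fold. Ifih1, a sensor of double-stranded RNA, was at least 5.69-fold higher. Among the untested genes, Tlr3, Irf7, Ifit1, Ifit3, Mx1 and Mx2 were not well above background on every array of any group.

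The pluripotency list was the one with the most falls. Of 26 genes 15 fell and 1 rose, beside 15% of all genes that fell, with a median of -0.62. The median over all genes was -0.14, and after quantile normalization the list median was -0.36 and 12 fell. Tfcp2l1, a naive-state transcription factor, stood at 2.02 in the knockout, against 3.40 and 3.72 in J1, a fall by 1.54 log2 units (SE 0.23, limma adjusted p = 0.00712). Tcl1, a cofactor of AKT, fell by 1.46, the nuclear receptor Nr0b1 fell by 1.22 and Sox2, a core factor, fell by 0.94. Pecam1, named as the only rise, rose by 0.72 and did not pass without J1 replicate 2 (limma adjusted p = 0.0508).

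Some genes of the primed epiblast were higher. Of 23 tested 8 rose and 2 fell, with a median of 0.41. Fgf8, a growth factor, stood at 2.19 in the knockout, against -0.97 and -1.08 in J1, a rise of 3.21 log2 units (SE 0.15, limma adjusted p = 0.000246). The Nodal inhibitors Lefty2 and Lefty1 rose by 2.47 and 1.75, and the zinc finger factor Sall2 by 1.54. The falls, named as the only ones, were Spry2 (-1.38) and Dusp6 (-0.61), a pair of feedback inhibitors of growth factor signalling. Dusp6 did not pass with quantile normalization (-0.39, limma adjusted p = 0.0563) or with the authors' values (-0.36, limma adjusted p = 0.0668).

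Markers of other cell types were checked on every array. Mean levels were -0.90 in the knockout, against -1.93 and -1.85 in J1, over 21 primitive endoderm genes, of which 9 rose and 2 fell, with a median difference of 0.77 that was 0.16 after normexp background correction. Well above background were 18 of them in the knockout, against 16 and 12 in J1. Of the 9 rises, 3 started from levels not above background on both J1 arrays and passed the filter only through other arrays. Afp, a fetal serum protein, was at least 6.71-fold higher. Srgn, a proteoglycan, and Cubn, an endocytic receptor, rose by 3.37 and 2.58. Hnf4a, a liver and endoderm factor, was higher by 2.09 and did not pass (SE 0.80). The 2 falls, of -0.87 and -1.46, were smaller in size than the differences of these named genes. Over 20 trophoblast genes the mean was 1.29, against 0.75 and 0.78. Of them 7 rose and 4 fell, beside 13.1% and 15% of all genes. Plac1, a placental gene, was at least 11-fold higher, and the keratin Krt7 rose by 2.21. Hand1 and Eomes, which are also in the mesoderm list, rose by 1.46 and 1.30. The 4 trophoblast falls lay between -0.48 and -0.89. Of 10 mesoderm genes 5 rose, among them the ligand Wnt3 by 1.31, and the median of 1.07 was 0.11 with dim genes at their bound and -0.02 after normexp background correction. Pdgfra, a receptor counted there and in the primitive endoderm list, was above background in neither group. Of 11 neural genes 0 rose and 3 fell, namely Gbx2 (-1.38), Pax6 (-1.08) and Tubb3 (-0.93), and Sox1 (-0.63) did not pass.

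Fibroblast genes had a mean of -0.01 in the knockout, against -0.99 and -0.69 in J1, over 15 tested, and 6 rose and 1 fell. Acta2, smooth muscle actin, stood at 4.66 in the knockout, against 1.01 and 1.00 in J1, a rise of 3.65 log2 units (SE 0.10, limma adjusted p = 0.00016). The collagens Col1a2 and Col1a1 rose by 3.24 and 2.47, and fibrillin Fbn1 by 1.36. The difference of the gene that fell was -0.82. All 15 were well above background on the knockout and J1 arrays. Lum, Postn and Prrx1, the other listed markers, were not well above background on every array of any group. The part of such cells in any result was not tested.

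Targets of p53, which respond to DNA damage, gave 7 rises and 1 fall among 22 genes, beside 13.1% and 15% of all genes. Their median was 0.04, and the difference of the gene that fell was -0.57. Cdkn1a, the cell cycle inhibitor, stood at 3.31 in the knockout, against 1.23 and 1.02 in J1, a rise of 2.18 log2 units (SE 0.16, limma adjusted p = 0.00078). All 3 of its probes were higher. Fas, a death receptor, was at least 3.74-fold higher, Pmaip1, a promoter of apoptosis, rose by 1.93, and the death receptor Tnfrsf10b by 1.14. Among 19 immediate early genes 5 rose and 3 fell, beside 13.1% and 15% of all genes. Myc fell by 1.20, Atf3 rose by 1.03, Egr2 rose by 0.90, and Ier5 (1.08) did not pass. Egr2 did not pass without J1 replicate 1 or replicate 2 (limma adjusted p = 0.0516 and 0.0557), nor with slide as a block (limma adjusted p = 0.0515). After normexp background correction its difference was 0.17 (limma adjusted p = 0.369).

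Polycomb and heterochromatin genes, which keep chromatin repressed, were counted in a pair of lists. Of 21 Polycomb genes 0 rose and 5 fell, beside 13.1% and 15% of all genes, with a median of -0.27. Eed, a core subunit of PRC2, stood at 5.19 in the knockout, against 6.27 and 6.19 in J1, a fall by 1.04 log2 units (SE 0.14, limma adjusted p = 0.00561). Jarid2, its partner, fell by 0.94, and the PRC1 subunits Rybp and Rnf2 fell by 0.65 and 0.64. Without J1 replicate 2 Rybp did not pass (limma adjusted p = 0.0646). Of 18 genes of H3K9 methylation and heterochromatin 2 rose and 6 fell, with a median of -0.55. After quantile normalization this median was -0.27 and 2 fell. Kdm3a, an H3K9 demethylase, fell by 0.99, Cbx1, a heterochromatin protein, fell by 0.87, Morc3 fell by 0.79 and Atf7ip, a partner of Setdb1, rose by 0.66. Kdm3a did not pass without J1 replicate 2 (limma adjusted p = 0.0634), nor Atf7ip without J1 replicate 1 (limma adjusted p = 0.0680). Morc3 did not pass without J1 replicate 2 (limma adjusted p = 0.109), nor without any 1 replicate of Dnmt3b_KO, PRDM14 or PRDM14_DNMT3B (limma adjusted p from 0.0561 to 0.0653).

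**Figure D3:**
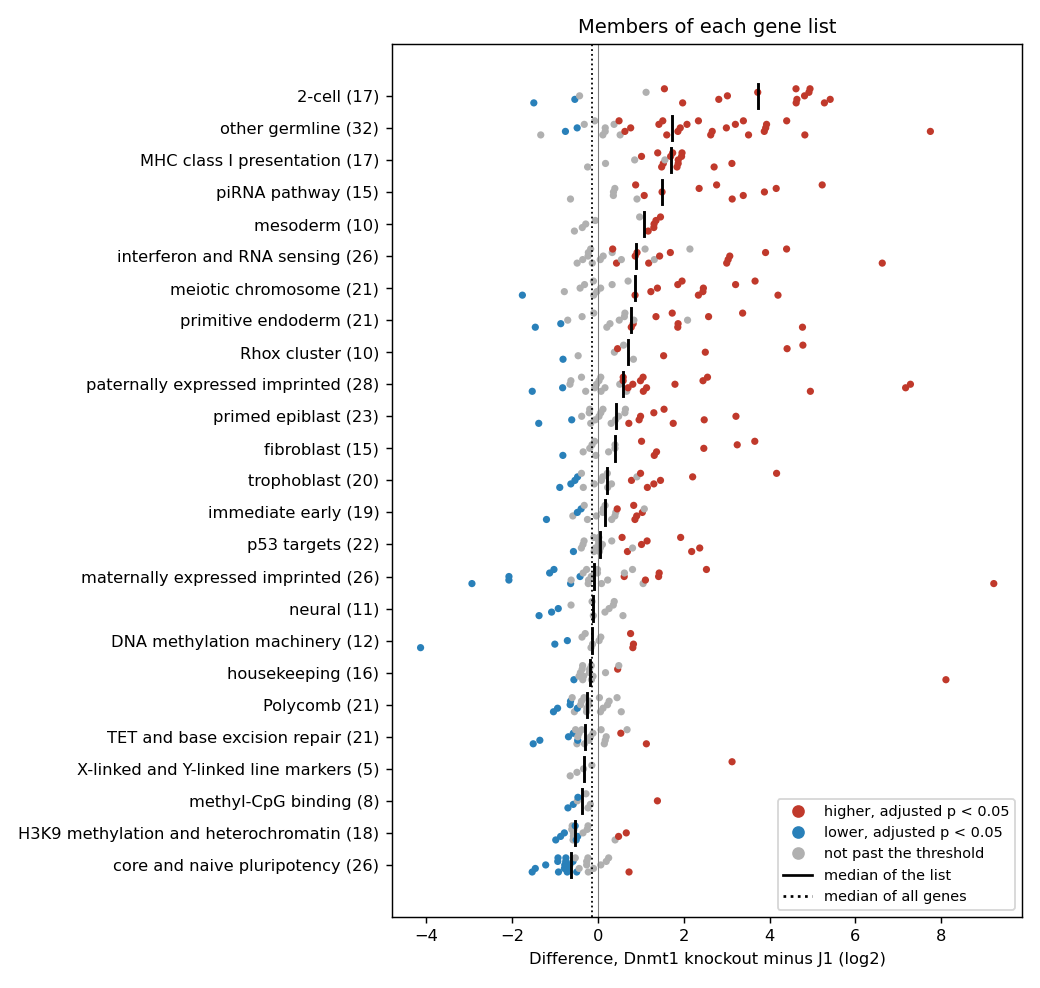
Difference of each tested member of the 25 gene lists (log2, Dnmt1 knockout minus J1), with the number tested in brackets. Coloured points passed an adjusted p of 0.05, grey points did not, bars are list medians and the dotted line is the median of all genes at -0.14. The 2-cell list has the highest median (3.72, or 1.78 with dim genes at their bound) and the pluripotency list the lowest (-0.62).

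Against the other methyltransferase knockouts, the same knockout array was used, so the 3 comparisons share it. Against Dnmt3b_KO 3985 genes changed (16.7%), 2038 higher (8.56%) and 1947 lower (8.18%). Against TKO 2179 changed (9.15%), 1158 higher (4.86%) and 1021 lower (4.29%). Both comparisons tested the difference between the lines directly.

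Germline lists held more members higher than lower in the Dnmt1 knockout against Dnmt3b_KO as well. Of the piRNA list 7 of 15 were higher and 0 lower, of the meiotic list 11 of 21 were higher and 1 lower, and of the other germline list 21 of 32 were higher and 3 lower. Of the 2-cell list 14 of 17 were higher and 1 lower, and of the MHC class I list 13 of 17 were higher and 0 lower. Some members were not above background throughout at least 1 of the lines compared. They were 9 of the 2-cell, 9 of the other germline, 2 of the piRNA, 2 of the meiotic and 1 of the MHC class I genes. Those dim in Dnmt3b_KO passed the filter only through other arrays, so their count is no support of its own. H19 stood at 6.86 in the Dnmt1 knockout, against -1.79 and -1.93 in Dnmt3b_KO (8.72 log2 units, limma adjusted p = 9.24e-05). Plagl1 stood at 3.22, against 2.22 and 2.57, and did not differ past the threshold. Further rises against J1 did not differ from Dnmt3b_KO past the threshold either, among them Peg13, Lefty1, Sall2, Col1a2, Fbn1, Atf3, Apobec1, Fas and Tnfrsf10b. Nefm was above background in Dnmt3b_KO, at -0.53 and -0.58, and was higher by 3.05 in the Dnmt1 knockout. Other rises against J1, such as those of Fkbp6, Gpat2 and Gtsf1, were present against Dnmt3b_KO as well. Of the fibroblast list 1 of 15 was higher and 7 lower, since Col1a1 stood at 0.49 in the Dnmt1 knockout, against 1.73 and 1.73 in Dnmt3b_KO. Of the pluripotency list 20 of 26 were lower and 0 higher.

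Against TKO 10 of the 68 tested germline genes differed, beside 9.15% of all genes. Of the piRNA list 1 of 15 was higher and 0 lower, of the meiotic list 0 of 21 were higher and 4 lower, and of the other germline list 0 of 32 were higher and 5 lower. Each of these lines is 1 array, so a gene that missed the threshold is not shown to be equal. H19 was higher in the Dnmt1 knockout, at 6.86 against 5.52 (1.35 log2 units, SE 0.23, limma adjusted p = 0.0240). It did not pass without 1 of the PRDM14 or of the PRDM14_DNMT3B replicates (limma adjusted p = 0.0543 and 0.0510). Nefm was higher by 2.37 (limma adjusted p = 0.00429) and Fgf8 by 2.13 (limma adjusted p = 0.0033). Dnmt3a stood at 0.55, against -6.38 in TKO, and Dnmt3b at 7.65, against 1.99, and both genes are deleted in TKO. Trophoblast genes were higher in the Dnmt1 knockout for 13 of 20 and lower for 0, with a median of 1.56. Hand1 stood at -1.82, against -4.98 in TKO, and Eomes at 1.59, against -1.0. Primitive endoderm genes were higher for 2 of 21 and lower for 7, with a median of -1.71, and Cubn stood at -1.04, against 1.55 in TKO. Of the interferon list 8 of 26 were higher and 0 lower, and of the p53 list 6 of 22 were higher and 0 lower, among them Cdkn1a by 1.20 (limma adjusted p = 0.0162).

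**Figure D4:**
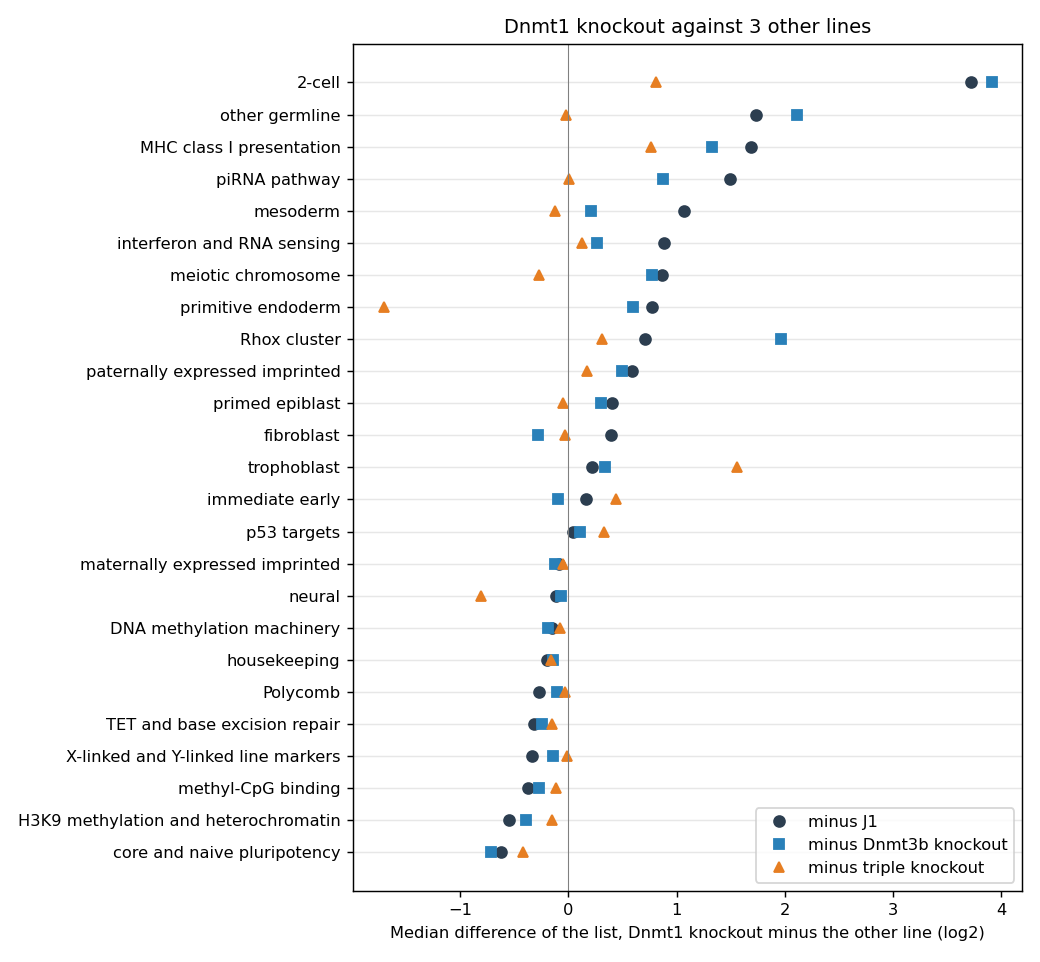
Median difference (log2) of each gene list in the Dnmt1 knockout minus J1, minus Dnmt3b_KO and minus TKO, which share the knockout array. The other germline list lies at 1.73, 2.11 and -0.02, and the trophoblast list at 0.22, 0.34 and 1.56. With dim genes at their bound the other germline medians are 1.55, 1.46 and -0.002, so the order of the J1 and Dnmt3b_KO values is not measured.

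Genes of chromosome 11 lay higher as a whole. Their median difference was 0.20 log2 units above that of the other autosomes, 0.20 against each J1 replicate, 0.21 against Dnmt3b_KO and 0.14 against TKO. The shift was present in all 8 parts of the chromosome with equal gene numbers, from 0.14 to 0.30. On chromosome 11 18.1% of 1747 genes rose, against 12.3% on the other autosomes. Genes of chromosome 14 lay 0.17 above the other autosomes against J1, but -0.06 against Dnmt3b_KO and -0.04 against TKO. Copy number was not measured on these arrays. Without chromosome 11, 6246 genes changed against J1. Zbtb4, Hormad2, Tmem92, Hand1, Wnt3, Col1a1, Grb10, Cbx1 and Pecam1 are the genes named here that lie on chromosome 11.

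**Figure D5:**
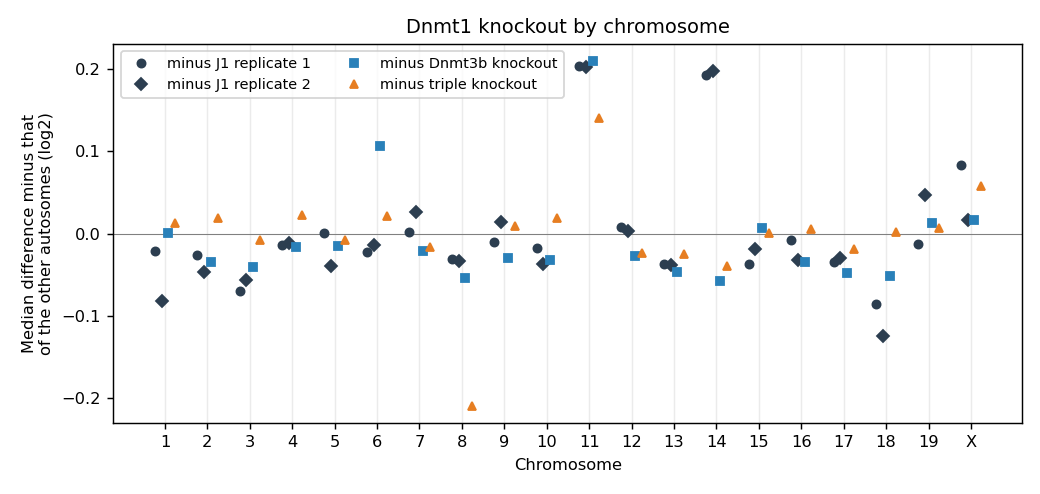
Median difference of each chromosome's genes minus that of the other autosomes (log2), Dnmt1 knockout minus J1 replicates 1 and 2, minus Dnmt3b_KO and minus TKO. Chromosome 11 lies between 0.14 and 0.21 in all 4, and chromosome 14 near 0.19 against J1 only.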

How the data were processed

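Total RNA of mouse embryonic stem cells was amplified and labelled with Cy3, per the labels' protocols, and hybridised to 10 one-colour Agilent arrays of 6 groups. The deposited scanner files hold 1 fluorescence intensity per spot, made with Agilent Feature Extraction 10.7.3.1 per the file headers. A deposited value table holds log2 values that the authors scaled between arrays, with limma named in the submitters' processing notes and the exact scaling unknown, and its columns share a median of 4.24. It was used as an alternative only. Probes are 60 bases long with mm9 coordinates. Exon positions of probes are not given, for want of an mm9 annotation.

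Control and outlier spots were left out, log2 intensities were centred on the 75th percentile of each array, and spots of a probe were averaged. Of 55681 probes, 33114 were kept because all arrays of some group detected them well above background, and the brightest probe stood for its gene. Symbols were updated through RefSeq accessions, of which 20869 of 22232 matched. All 10 arrays entered 1 fit in limma 3.58.1 (R 4.3.3), which had 4 residual and 1.73 prior degrees of freedom. Benjamini-Hochberg adjustment ran over all genes. Spots well above background made up 50.0% to 56.0% per array, no spot was saturated, and the number of arrays limits the precision. Replicate numbers could not serve as a block. The code was tested on simulated data.

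Named genes were the DNA methylation machinery, the 10 largest called fitted rises and falls with a proper symbol, the 4 largest differences of each other list, and Hprt. Genes named outside this rule are marked. The lists and members were chosen with earlier results of these data known. Promoters came from RefSeq tables, and figures were drawn with Python and matplotlib. Alternatives covered scaling, background, dim probes, probe choice, slide, arrays in the fit, the prior, chromosome 11 and each replicate.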

Additional observations from a re-analysis of the deposited data

How the results depend on the processing

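Of 118 named genes called against J1, 86 kept their sign and call under every one of the 18 alternatives in which they could be tested. Zbtb4 reversed to -0.35 with the mean of all probes and Usp17la to -0.33 with probes above background on all 10 arrays, since their probes disagree. Plagl1 did not pass with the latter filter (adjusted p = 0.476). The small falls of Cdca7, Rybp, Morc3, Dppa2, Eif1a and Dusp6 did not pass with quantile normalization, nor with the authors' values. Their calls thus depend on the scaling. Without a filter on dim probes, which tests more genes, 4081 genes changed against J1 and 1705 were lower. Against Dnmt3b_KO 2379 changed and 875 were lower, and against TKO 1099 changed, 650 higher and 449 lower. With only the J1, Dnmt1_KO, Dnmt3b_KO and TKO arrays, which leaves fewer samples in the fit, 3025 changed against J1 (1926 higher, 1099 lower), 1426 against Dnmt3b_KO (1021 higher, 405 lower) and 220 against TKO (159 higher, 61 lower). Over 2-fold, normexp background correction gave 733 higher and 251 lower against J1. Probes above background on all 10 arrays gave 847 higher and 552 lower over 2-fold. The cause was not tested for either setting. Leaving out 1 replicate in turn gave 4473 to 5849 genes changed against J1, 2044 to 2934 lower and 2429 to 2915 higher. The lowest count of falls was without J1 replicate 2. It gave 2107 to 3701 changed against Dnmt3b_KO (1330 to 2000 higher, 777 to 1701 lower) and 1359 to 1916 against TKO (571 to 868 lower). Of the calls against J1, the share higher was 46.6% here, 55.8% with quantile normalization, 55.9% with the authors' values, 58.2% without the dim filter, 34.9% with probes above background on all arrays and 63.7% with the arrays of these 4 groups. No paired analysis was possible because the Dnmt1 knockout has 1 array without a replicate number. Probes near background limit all differences of genes that J1 barely expresses.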

Other observations

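Rises over 8-fold were more frequent on the X chromosome. Of 960 X-linked genes tested, 70 rose over 8-fold (7.29%), against 353 of 22564 autosomal genes (1.56%). The fold is the fitted one, so Xlr3a and Xlr5a are counted though their minimum fold is under 8. Risen genes not above background in J1 passed the filter on dim probes only through other arrays. The Xlr and Rhox genes described above are among those on X, and close copies within such families may share signal. No test was made, as the share was noticed in the results. Among 5 markers of the X and Y chromosomes, Zfy1, a Y-linked zinc finger gene active in testis, was at least 4.5-fold higher in the knockout than in J1 (limma adjusted p = 0.0112). The Y-linked genes Eif2s3y (-0.49), Ddx3y (-0.34) and Uty (-0.65) did not pass.

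Of 16 housekeeping genes 2 rose and 1 fell in the Dnmt1 knockout against J1, beside 13.1% and 15% of all genes. Their median was -0.20. Apart from Hprt, Gusb, a lysosomal glucuronidase, rose by 0.46 (not past the threshold without J1 replicate 1 or 2, limma adjusted p = 0.0585 and 0.0666) and Ywhaz, a signalling adaptor, fell by 0.56.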
